A study of Mus musculus with 3 samples.

Results

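The genes of the MYC, MAX and MXD network were measured in 3 transplanted mouse mammary tumours of the NDL(UCD) line. The members are the 10 rows of the deposited gene tables named Myc, Mycn, Mycl1, Max, Mxd1, Mxd3, Mxd4, Mxi1, Mnt and Mlx, of 21881 gene symbols in all. Rows were taken by name, and every member was listed above 0 in all 3 tumours. The study profiled total RNA after removal of ribosomal RNA. All 3 samples belong to 1 group: snap-frozen tumours that grew from injected NDL(UCD) cells after propagation in culture, in mammary fat pads of FVB/NJ females (strain label FVB/N) aged 6 to 8 weeks. The pads were uncleared, so the hosts kept their own glands. Each tumour came from a different mouse and was collected once it was 5 to 10 mm wide. NDL denotes an activated form of the ErbB2 (Neu) receptor, driven in the parent transgenic model by a mammary tumour virus promoter. All samples share this line, the labels name no treatment, and no normal gland or other tumour is compared with them. The results below are therefore levels of genes within the tumours and differences between single tumours, numbered 1 to 3 in accession order. Values are FPKM, sequenced fragments per kilobase of transcript scaled to the size of the library, which lets levels of different genes be compared. Means carry their SD over the tumours (n = 3).

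MYC proteins are transcription factors that bind DNA only as dimers with MAX, through a basic helix-loop-helix zipper domain, and raise transcription of genes for ribosome assembly, metabolism and cell division. The MXD proteins, among them MXI1, and MNT compete for the same partner. Their dimers with MAX bind the same E-box sites and bring in the SIN3 corepressor complex. MLX is a MAX-like protein that pairs with some MXD proteins, with MNT and with the glucose-sensing factors MLXIP and MLXIPL. In the mammary gland MYC is known for its part in alveolar growth and in tumours.

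The canonical E-box of these dimers is CACGTG, which reads the same on both strands. RefSeq promoter windows (build GRCm38.p6, 250 bases before to 50 after each start) matched 9 of the 10 members by symbol, Mycl1 under its current name Mycl, while Myc had no entry. Of these 9 genes 4 held CACGTG, namely Max, Mxd4, Mnt and Mlx, beside 8.09% of all 27025 genes in the table. Of the 11 windows of the members 36.4% held it. Among all 32851 windows 7.15% did, and among the 13456 windows with a GC content in the members' range, 55% to 76.7%, 10.3% did. The stretches below run 5′ to 3′ to the start site, or to the end of the motif for Max, whose motif crosses the start, and are shown because they hold the network's own binding motif, in capitals.
Max (chr12:76962246-76962498, minus strand): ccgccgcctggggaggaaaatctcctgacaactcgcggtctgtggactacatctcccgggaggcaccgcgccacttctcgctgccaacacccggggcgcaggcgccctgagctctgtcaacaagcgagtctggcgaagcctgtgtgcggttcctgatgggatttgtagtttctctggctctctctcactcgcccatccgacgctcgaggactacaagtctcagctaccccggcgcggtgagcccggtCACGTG
Mxd4 (chr5:34187711-34187960, minus strand): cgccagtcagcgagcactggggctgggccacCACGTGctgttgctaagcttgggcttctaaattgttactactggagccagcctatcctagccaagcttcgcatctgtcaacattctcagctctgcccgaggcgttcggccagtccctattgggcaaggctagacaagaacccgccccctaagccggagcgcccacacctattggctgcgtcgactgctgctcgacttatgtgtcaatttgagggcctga
Mlx (chr11:101087040-101087289, plus strand): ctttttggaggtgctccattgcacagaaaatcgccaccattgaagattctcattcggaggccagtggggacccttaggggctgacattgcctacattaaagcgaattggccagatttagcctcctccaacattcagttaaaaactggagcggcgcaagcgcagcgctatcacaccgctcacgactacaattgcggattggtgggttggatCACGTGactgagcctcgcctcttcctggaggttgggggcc
Mnt (chr11:74830674-74830923, plus strand): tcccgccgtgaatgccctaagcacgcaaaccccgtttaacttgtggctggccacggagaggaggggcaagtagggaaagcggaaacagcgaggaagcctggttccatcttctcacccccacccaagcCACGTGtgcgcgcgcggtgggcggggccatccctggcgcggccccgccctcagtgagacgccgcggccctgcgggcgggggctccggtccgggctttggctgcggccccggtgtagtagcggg
The first base of the motif lay at -3, -219, -40 and -123 from the annotated start of Max, Mxd4, Mlx and Mnt. The windows of Mycn, Mycl, Mxd1, Mxd3 and Mxi1 did not hold these letters. By mean level Max, Mxd4 and Mlx were the 3 most abundant members, although in tumour 1 Mxi1, without these letters, exceeded Mlx. Mnt was among the least abundant. A match describes the sequence only, and binding was not measured here.

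The deposited intervals corresponded to 11698588, 12417558 and 13377729 fragments in tumours 1, 2 and 3. Of 18028 symbols listed above 0, 54.2% were called above 1 FPKM and 32.5% below. The call used limma and a Benjamini-Hochberg adjusted p under 0.05, here and throughout. Of these calls 62.5% were above, or 73.4% after each tumour was rescaled to an FPKM total of 1000000, which raised the median gene by 1.46 log2 units. The luminal markers of the labelled tissue were present, with 6 of 7 above 1 FPKM and summed levels of 949.8, 1291 and 1159 FPKM in tumours 1, 2 and 3. The tumours also differed in how levels ran with GC content. Genes with a transcript GC content of at most 41.5% deviated by a median of 0.74, -0.14 and -0.59 log2 units in tumours 1, 2 and 3, and genes with at least 57.5% by -0.46, 0.12 and 0.34. Values with these GC and length trends removed are therefore given beside many of the differences between tumours. Where none are given, the values are as deposited, and some of these differences change when the trends are removed. In bulk tissue, fewer cells of a type and less RNA per cell cannot be told apart.

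Among the MYC genes, Myc itself (mm9 chromosome 15, 61816896 to 61821916) was the most abundant. It was at 3.14, 6.49 and 4.21 FPKM in tumours 1, 2 and 3, from 200, 400 and 288 fragments. The deposited intervals, 2.70 to 3.58, 5.84 to 7.14 and 3.71 to 4.70 FPKM, did not overlap, with tumour 2 highest and tumour 1 lowest. The mean was 4.61 ± 1.71 FPKM, which was above 1 FPKM by 2.04 ± 0.28 log2 units (SE; limma adjusted p = 0.000109). The Myc mean exceeded that of 68.7% of the 21699 symbols with an accepted status.

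Mycn, which encodes the neuronal family member (chromosome 12, 12942899 to 12948642), was at 0.767, 1.08 and 0.861 FPKM. Its intervals overlapped in all 3 tumours, and its mean of 0.901 ± 0.159 FPKM was not separated from 1 FPKM (limma adjusted p = 0.629). Mycl1, which encodes L-MYC (chromosome 4, 122673342 to 122679723), was the only member called below 1 FPKM, at 0.0619, 0.118 and 0.298 FPKM (limma adjusted p = 0.000111). These values rest on 6, 11 and 31 fragments, and the interval of tumour 3, 0.191 to 0.406 FPKM, lay above those of the other tumours. Myc exceeded Mycn by 2.18 ± 0.29 log2 units (4.54-fold) and Mycl1 by 4.22 ± 0.75 (18.7-fold), on the log2(FPKM + 0.1) scale and in 3 of 3 tumours. With 3 tumours an exact sign-flip permutation test cannot give a p below 0.25, and each such contrast that went the same way in every tumour had this p. Differences between members are therefore described as beyond their spread where all 3 tumours had the same sign and the mean was at least 2 SD. Both contrasts of Myc met this. Of the summed level of the 3 genes, Myc made up 80.7 ± 3.30%, Mycn 16.5 ± 2.67% and Mycl1 2.89 ± 2.32%.

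Max, the shared dimerisation partner (chromosome 12, 78038256 to 78063235), was the most abundant member. It was at 15.9, 23.6 and 21.6 FPKM in tumours 1, 2 and 3, a mean of 20.4 ± 3.98 FPKM (limma adjusted p = 3.42e-07 against 1 FPKM). As deposited the value of tumour 1 lay below the other tumours without overlap of the intervals. With GC and length trends removed Max was at 19.6, 21.7 and 19.1 FPKM in tumours 1, 2 and 3, lowest in tumour 3. Max exceeded Myc by 2.16 ± 0.27 log2 units, a fold of 4.47, with 2.30, 1.85 and 2.33 in the single tumours. The difference was smallest in tumour 2, where Myc was highest. The difference with GC and length trends removed was 2.16 ± 0.31. The removal acts on each gene's deviations from its own mean of the 3 tumours. It therefore leaves mean differences between genes nearly unchanged, and a GC or length bias between genes was not tested.

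**Figure D1:**
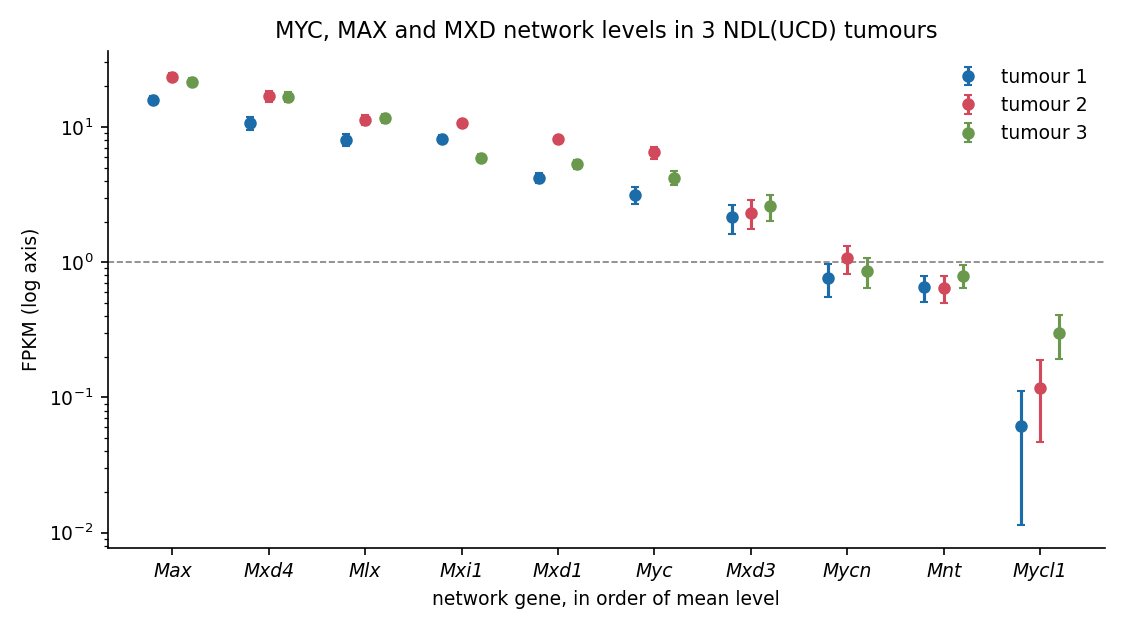
FPKM (log axis) of the 10 network genes in tumours 1 to 3, in order of mean level; bars are the deposited intervals, which cover counting error, and the dashed line marks 1 FPKM. Max leads at 15.9 to 23.6 FPKM and Mycl1 is lowest at 0.0619 to 0.298 FPKM.

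The MXD genes, which encode the MAX-binding repressors, covered a wide range. Mxd4 (chromosome 5, 34519229 to 34530359), whose product is known from differentiated and resting cells, was the highest of them at 10.6, 16.8 and 16.8 FPKM (mean 14.8 ± 3.55 FPKM, limma adjusted p = 8.92e-07). Tumours 2 and 3 were alike and tumour 1 lower, with no overlap of its interval with theirs. Mxi1 (chromosome 19, 53384996 to 53450300), the only member with 3 RefSeq promoter windows, was at 8.22, 10.7 and 5.94 FPKM (mean 8.28 ± 2.37 FPKM, limma adjusted p = 5.81e-06). Its intervals did not overlap, and as deposited it was the only member that was lowest in tumour 3.

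Mxd1 (chromosome 6, 86597039 to 86619153), a repressor induced when cells leave the cycle, was at 4.21, 8.12 and 5.29 FPKM (mean 5.87 ± 2.02 FPKM, limma adjusted p = 2.88e-05). As deposited its 3 intervals did not overlap, and the tumours stood in the same order as for Myc. With GC and length trends removed Mxd1 was at 4.95, 7.60 and 4.83 FPKM, nearly equal in tumours 1 and 3. Mxd3 (chromosome 13, 55426529 to 55431091), which unlike its relatives is known from dividing cells in S phase, was at 2.15, 2.32 and 2.59 FPKM (mean 2.35 ± 0.221 FPKM, limma adjusted p = 0.00215). Its intervals overlapped in all tumours, and they rest on 67, 69 and 87 fragments. The annotated locus of Mxd3 overlaps Prelid1 by 105 bp, and the handling of strand is not stated, so its level is uncertain to that extent. Mxd4 exceeded Mxd3 by 2.57 ± 0.28 log2 units (5.95-fold) and Mxd1 by 1.34 ± 0.30 (2.52-fold), both beyond their spread. It exceeded Mxi1 by 0.83 ± 0.58 log2 units, the same sign in 3 of 3 tumours but within 2 SD. With GC and length trends removed the spread of Mxd4 minus Mxi1 narrowed to 0.83 ± 0.34, which was beyond 2 SD. That of Mxd4 minus Mxd3 widened to 2.58 ± 0.54.

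Mnt (chromosome 11, 74644426 to 74659227), a broadly acting antagonist of MYC, was at 0.651, 0.644 and 0.795 FPKM, with overlapping intervals. Its mean of 0.697 ± 0.0853 FPKM was not separated from 1 FPKM (limma adjusted p = 0.139). Its level was far from those of the other repressors. Mnt minus Mxd4 was -4.19 ± 0.34 log2 units (18.3-fold lower), and Mnt minus Myc was -2.51 ± 0.56 (5.68-fold lower), negative in 3 of 3 tumours.

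Mlx (chromosome 11, 100948604 to 100953521) was at 8.07, 11.3 and 11.6 FPKM (mean 10.3 ± 1.96 FPKM, limma adjusted p = 1.80e-06). As deposited tumour 1 was lower than the others without overlap of the intervals. With GC and length trends removed Mlx was at 10.4, 10.3 and 9.88 FPKM in tumours 1, 2 and 3, highest in tumour 1. Its locus overlaps Psmc3ip by 51 bp. Max exceeded Mlx by 0.97 ± 0.08 log2 units, a fold of 1.96, with values of 0.97, 1.06 and 0.89 in the single tumours.

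Of the 10 members 7 were called above 1 FPKM, 1 below, and 2 were not separated from it, beside 54.2% above and 32.5% below among all genes. The median member was at 5.24 FPKM and the median of all genes tested at 2.44 FPKM. After each tumour was rescaled to an FPKM total of 1000000, 9 members were called above and 1 below. Of the 18028 symbols 11636 were then called above and 4208 below.

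In order of mean level the members were Max, Mxd4, Mlx, Mxi1, Mxd1, Myc, Mxd3, Mycn, Mnt and Mycl1. Among neighbours in this order, Max and Mxd4 (0.47 ± 0.11 log2 units), Mxd4 and Mlx (0.50 ± 0.09), Mxd1 and Myc (0.35 ± 0.05), Mxd3 and Mycn (1.3 ± 0.23) and Mnt and Mycl1 (1.72 ± 0.52) differed beyond their spread. Mlx and Mxi1, Mxi1 and Mxd1, Myc and Mxd3, and Mycn and Mnt did not. Mlx minus Mxi1 had the same sign in only 2 of 3 tumours. With GC and length trends removed, Mxi1 minus Mxd1 tightened from 0.50 ± 0.40 to 0.50 ± 0.10 log2 units, and Mxi1 minus Myc from 0.85 ± 0.45 to 0.86 ± 0.10. Other pairs widened instead. Max minus Mxd4 was then 0.47 ± 0.20 log2 units, Mxd4 minus Mlx 0.50 ± 0.23 and Mxd1 minus Myc 0.36 ± 0.17.

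Transcripts of the repressors were together more abundant than those of the MYC genes in every tumour. The summed level of Mxd1, Mxd3, Mxd4, Mxi1 and Mnt was 25.9, 38.6 and 31.4 FPKM in tumours 1, 2 and 3, and that of the 3 MYC genes 3.97, 7.68 and 5.36 FPKM. The ratio of these sums was 6.52, 5.02 and 5.85, a difference of 2.53 ± 0.19 log2 units. Tumour 2 had the lowest ratio as deposited, but with GC and length trends removed they were 5.24, 5.21 and 7.0, with tumour 3 highest. Relative to Max, the repressor sum was 1.63, 1.64 and 1.45 times as high and the MYC sum 0.25, 0.326 and 0.248 times. Within the repressor sum Mxd4 made up 46.1 ± 6.53%, Mxi1 26.1 ± 6.57%, Mxd1 18.1 ± 2.60%, Mxd3 7.51 ± 1.3% and Mnt 2.24 ± 0.493%. The share of Mxd4 was 41.2%, 43.6% and 53.5% in tumours 1, 2 and 3, while that of Mxi1 was 31.8%, 27.7% and 18.9%. With trends removed the shares of Mxd4 were 42.5%, 43.3% and 52.6%, and those of Mxi1 26.6%, 28.4% and 22.3%, so Mxi1 was then highest in tumour 2 and lowest in tumour 3. These are shares of transcript levels, and protein was not measured.

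**Figure D2:**
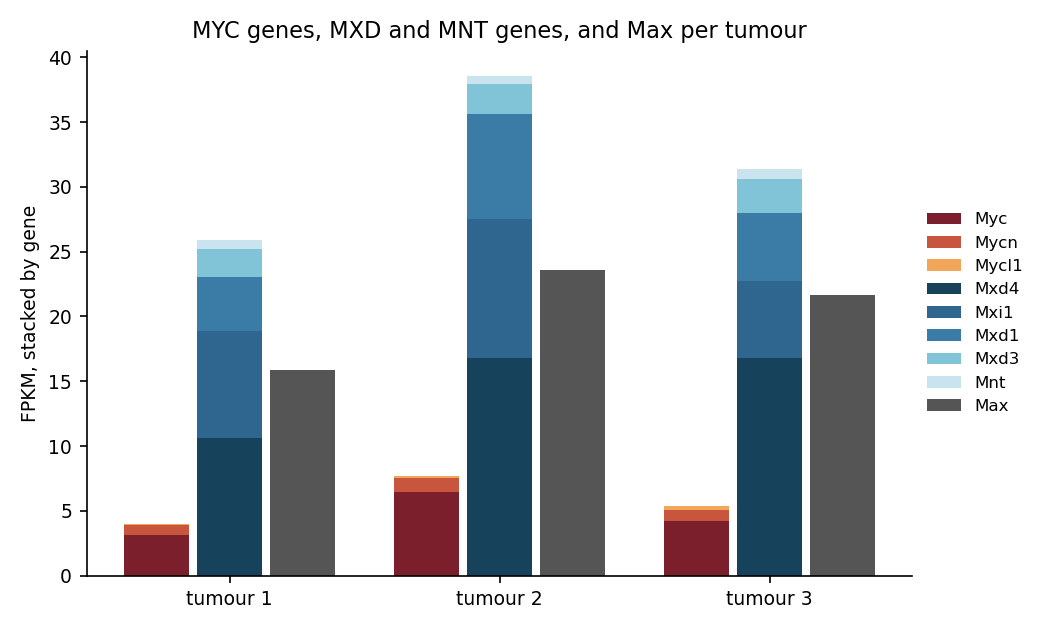
FPKM of the MYC genes, the MXD and MNT genes and Max in tumours 1 to 3, stacked by gene from 0, as deposited and without error bars. The middle bar (25.9, 38.6 and 31.4 FPKM) is 5.02 to 6.52 times as high as the left bar, and Mxd4 is its largest part in each tumour.

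Differences between tumours were tested with Cochran's Q on the deposited standard errors where the mean reached 1 FPKM, and a ratio of highest to lowest tumour of at least 2 was required. This compares 3 single libraries against their counting error. Of 11193 genes tested 32.1% passed, and the median ratio was 1.75. Of the 7 members tested only Myc passed, at a ratio of 2.07 (Cochran's Q, adjusted p = 3.65e-16). With GC and length trends removed Myc was at 4.33, 5.91 and 3.34 FPKM, and its ratio of 1.77 no longer met the rule, which 16.9% of genes then passed. The ratio was also 1.75 after rescaling to the same total and 1.69 with median-of-ratios scaling. Without tumour 1 it was 1.54 and without tumour 2 it was 1.34, so the call rests on those tumours. In all of these settings that keep 3 tumours the Myc value of tumour 2 stayed the highest of the 3, but the lowest was tumour 1 as deposited and tumour 3 with trends removed.

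The ratios of the other members tested were 1.93 for Mxd1, 1.80 for Mxi1, 1.58 for Mxd4, 1.48 for Max, 1.44 for Mlx and 1.20 for Mxd3. At a minimum ratio of 1.5, which 67.8% of all genes passed, 4 members passed, namely Mxi1, Mxd1, Mxd4 and Myc. Mycl1, below the minimum mean, had a ratio of 4.82 from 6, 11 and 31 fragments (2.82 with trends removed). Without a minimum mean, where 28.9% of genes passed, it met the rule together with Myc (Cochran's Q, adjusted p = 0.000605 for Mycl1). As deposited 8 of 10 members were lowest in tumour 1, the exceptions being Mnt and Mxi1. With trends removed only Mxd4 and Mycl1 were lowest there and 7 were lowest in tumour 3. Tumour 2 was the highest for Max, Mxd4, Mxi1, Mxd1 and Myc in both cases.

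As deposited Mxd1 and Myc kept the closest proportion of all neighbours in the order. The ratio of Mxd1 to Myc was 1.34, 1.25 and 1.26 in tumours 1, 2 and 3, although both genes were far higher in tumour 2 than in tumour 1. With trends removed the values were 1.14, 1.29 and 1.45. This pair was singled out after its values were seen. As deposited the luminal sums given above were highest in tumour 2, but with trends removed they were 1206, 1189 and 958 FPKM, highest in tumour 1. The sums of 3 other lists were highest in tumour 2 in both cases. The counts above 1 FPKM given with the sums below stand beside 54.2% of all genes. Fibroblast markers summed to 166, 292 and 259 FPKM, with 6 of 6 above 1 FPKM, endothelial markers to 13.2, 19.9 and 16.3 FPKM, with 4 of 5 above, and basal markers to 23.9, 54.4 and 42.7 FPKM, with 2 of 6 above. With trends removed these sums were 196, 277 and 229.6 FPKM for fibroblast, 14.3, 19.0 and 15.5 FPKM for endothelial and 29.8, 50.05 and 37.5 FPKM for basal markers. Few abundant genes carried the basal sums, in which only Krt14 and Acta2 of 6 were highest in tumour 2 as deposited. Of the other lists, 2 of 7 luminal, 4 of 6 fibroblast and 3 of 5 endothelial markers were highest in tumour 2 as deposited. Macrophage markers (7 of 7 above) were highest in tumour 3 instead, at 243, 437 and 902 FPKM, as were adipocyte markers (2 of 6 above), at 60.8, 45.3 and 198 FPKM. No marker of these lists was listed at 0 in all tumours, although the basal keratin gene Krt5 stayed at 0.0171, 0.0400 and 0.150 FPKM. The part of these cells in the differences between tumours was not tested.

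**Figure D3:**
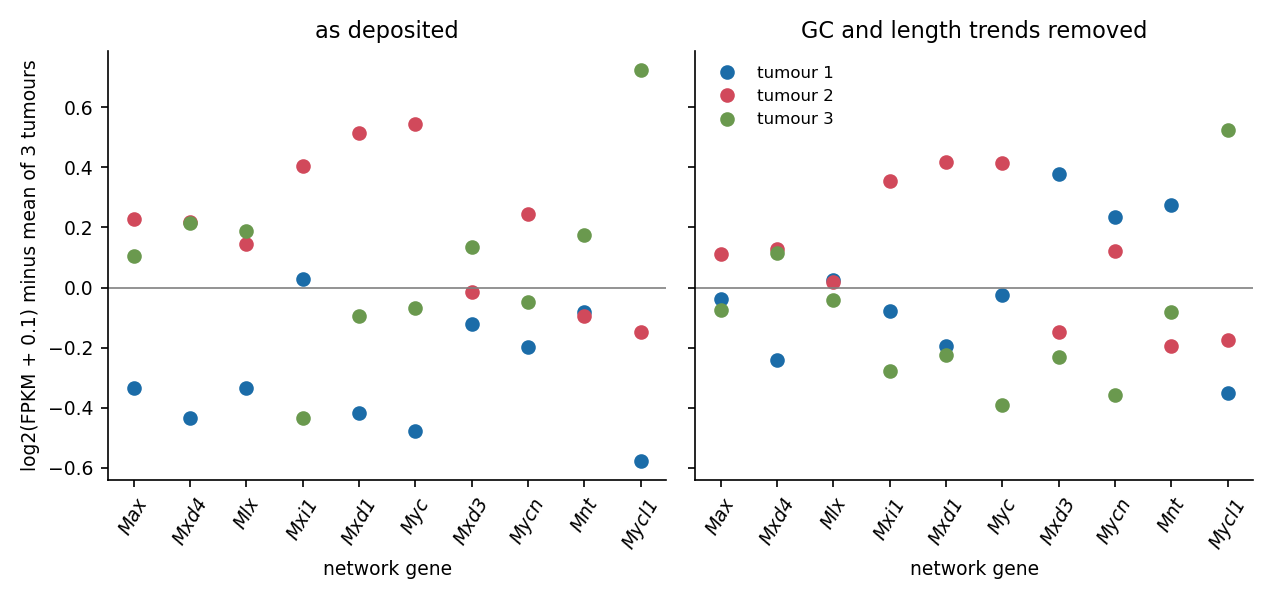
Difference of each network gene from its mean of 3 tumours on the log2(FPKM + 0.1) scale, as deposited (left) and with GC and length trends removed (right); each point is 1 tumour. Tumour 1 is lowest for 8 of 10 genes on the left and for 2 of 10 on the right, while Mxi1, Mxd1 and Myc are highest in tumour 2 in both panels.

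The partners of MAX and MLX outside the 10 members were Mga, Mlxip and Mlxipl. Mga, which encodes a MAX partner with a second DNA-binding domain, was at 6.30, 2.57 and 1.98 FPKM and past the rule for differences between tumours. The ratio of Mga to Max was 0.396, 0.109 and 0.0918 as deposited and 0.211, 0.134 and 0.142 with trends removed, highest in tumour 1 both ways. With trends removed Mga was at 4.12, 2.91 and 2.71 FPKM and no longer met the rule, and without tumour 1 it did not either. Mlxip, the MLX partner known from muscle and many other cells, was at 6.38, 6.34 and 10.5 FPKM, lower than Mlx in each tumour at 0.791, 0.562 and 0.906 times its level. Mlxipl, the glucose-sensing factor of liver and fat, was below 1 FPKM at 0.126, 0.202 and 0.107 FPKM.

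Genes for the SIN3 corepressor complex, through which MXD proteins and MNT silence genes, were all above 1 FPKM, 16 of 16 beside 54.2% of all genes. Sin3b, the scaffold, led at 29.7, 42.0 and 56.4 FPKM, followed by the histone-binding gene Rbbp7 at 38.1, 33.1 and 29.1 FPKM and Suds3, another subunit gene, at 14.7, 25.9 and 30.0 FPKM. The other scaffold, Sin3a, was at 9.37, 10.1 and 5.72 FPKM. The lowest were Sap18 at 2.75 ± 0.415 FPKM and Arid4b at 2.79 ± 2.27 FPKM. Past the rule for differences between tumours were 6 of 16, beside 32.1% of all genes. Hdac2, Arid4a, Arid4b and Ncor1 were highest in tumour 1, and Suds3 and Brms1 in tumour 3. None was past it without tumour 1, and 3 were without tumour 3. With trends removed 5 passed, beside 16.9% of all genes. Of these Arid4a, Arid4b and Ncor1 had also passed before, while Rbbp4 and Sap18 had not. Ncor1, a corepressor gene, was at 18.2, 9.87 and 7.43 FPKM as deposited and at 18.5, 9.96 and 7.37 FPKM with trends removed.

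Coactivators and chromatin partners of MYC were above 1 FPKM in 15 of 16 cases, beside 54.2% of all genes. The helicase genes Ruvbl1 and Ruvbl2 led at 26.2 ± 8.40 and 20.9 ± 5.80 FPKM, and Actl6a, an actin-related subunit, followed at 16.3 ± 3.33 FPKM. Trrap, the large scaffold that MYC recruits, was at 4.73, 6.53 and 8.39 FPKM. The lowest were Zbtb17, which encodes the MYC-binding factor MIZ1, at 1.70 ± 0.508 FPKM and not separated from 1 FPKM, and Dmap1 at 2.74 ± 0.969 FPKM. As deposited 13 of 16 were highest in tumour 3, beside 43.1% of the 18028 symbols, and with trends removed 10 were, beside 36.2%. Dmap1, Cdk9 and Smarcb1, 3 of 16 beside 32.1% of all genes, were past the rule for differences between tumours. None of the 16 was past it with trends removed, with either scaling, without tumour 1 or without tumour 3.

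Of 15 genes that act on the stability of the MYC protein 14 were above 1 FPKM, beside 54.2% of all genes. The stabilising and degrading sides were both present. Stub1, a ubiquitin ligase gene, was highest at 20.4 ± 8.26 FPKM, followed by the deubiquitinase gene Usp7 at 18.4 ± 5.88 FPKM and the ligase gene Huwe1 at 17.4 ± 1.02 FPKM. Fbxw7, the substrate receptor of the ligase that removes phosphorylated MYC, was at 14.1, 9.06 and 7.79 FPKM. The lowest were Skp2 at 2.11 ± 0.472 FPKM and Usp28, which counteracts FBXW7, at 0.911 ± 0.138 FPKM and not separated from 1 FPKM. Among those past the rule for differences between tumours, which 32.1% of all genes passed, were Stub1 and C330027C09Rik. The latter is the older symbol of Cip2a, whose product protects MYC from dephosphorylation. C330027C09Rik was at 10.3, 2.51 and 1.55 FPKM as deposited and at 5.50, 2.86 and 2.46 FPKM with trends removed. It alone of the list passed with trends removed, beside 16.9% of all genes. None passed without tumour 1, and 1 passed without tumour 3.

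The 35 genes known to be activated by MYC were high as a group, with 33 above 1 FPKM and none below. Of all genes 54.2% were above and 32.5% below. The median of the 35 was 16.2 FPKM beside 2.44 FPKM over all genes tested. It was not particular to this list. The MLX targets and cell division genes described below had medians of 17.5 and 16.5 FPKM. The turnover, SIN3 and coactivator lists had lower ones, at 10.2, 7.78 and 7.60 FPKM. Ldha, the lactate dehydrogenase gene, led at 412 ± 169 FPKM, followed by the translation factor gene Eif4a1 at 261 ± 72.0 FPKM and Nme2, a nucleoside diphosphate kinase gene, at 198 ± 58.9 FPKM. The lowest were the cyclin gene Ccnd2 at 1.46 ± 0.514 FPKM and the telomerase gene Tert at 1.3 ± 0.111 FPKM, neither separated from 1 FPKM. Npm1, Nme2, Ldha, Eif4a1 and Hspd1 have near-identical copies elsewhere in the genome, and how shared reads were assigned is not stated, so their levels are uncertain. Such genes respond to many factors, and a high level in 1 group of tumours does not assign it to MYC. In RefSeq promoter windows 9 of the 27 genes with an entry held CACGTG, namely Nme1, Cdk4, Eif4e, Eif4a1, Ldha, Hspd1, Apex1, Wdr43 and Mybbp1a, beside 8.09% of all genes in the table.

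Few of these genes were highest in tumour 2, where Myc was. As deposited, of the 35, 12 were highest in tumour 1, 22 in tumour 3 and only Nolc1 in tumour 2, beside 28.3%, 43.1% and 28.6% of the 18028 symbols. With trends removed 12 were highest in tumour 1, 18 in tumour 3 and 5 in tumour 2, namely Nop56, Nme2, Cdk4, Shmt2 and Slc7a5, beside 35.0%, 36.2% and 28.8%. Past the rule for differences between tumours were 18, beside 32.1% of all genes. Ncl, Npm1, Nop58, Hspd1, Tfrc, Wdr43, Gnl3, Dkc1 and Prps2 were highest in tumour 1, and Fbl, Odc1, Cad, Srm, Ldha, Bop1, Rrs1, Polr1b and Shmt2 in tumour 3. The median GC content of the first set was 42.8% and that of the second 54.2%. Of all 3594 genes past the rule 48.2%, 11.2% and 40.6% were highest in tumours 1, 2 and 3. Without tumour 1 the count was 4 and without tumour 3 it was 6.

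With GC and length trends removed 7 of the 35 passed, beside 16.9% of all genes, and 6 of them had passed before. Npm1, which encodes the nucleolar chaperone nucleophosmin, went from 263, 109 and 40.8 FPKM to 205, 109 and 52.1 FPKM in tumours 1, 2 and 3. Gnl3, the gene of the nucleolar GTPase nucleostemin, was at 8.62, 4.88 and 2.44 FPKM as deposited and 8.83, 4.61 and 2.53 FPKM with trends removed. The mitochondrial chaperonin gene Hspd1 was at 89.5, 51.6 and 33.1 FPKM and at 94.2, 48.6 and 33.5 FPKM. Nop58 and Dkc1, which encode core proteins of small nucleolar ribonucleoproteins, were likewise highest in tumour 1 both ways. Cad, whose product starts pyrimidine synthesis, and Ccnd2 were highest in tumour 3, and Ccnd2 had not passed as deposited.

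**Figure D4:**
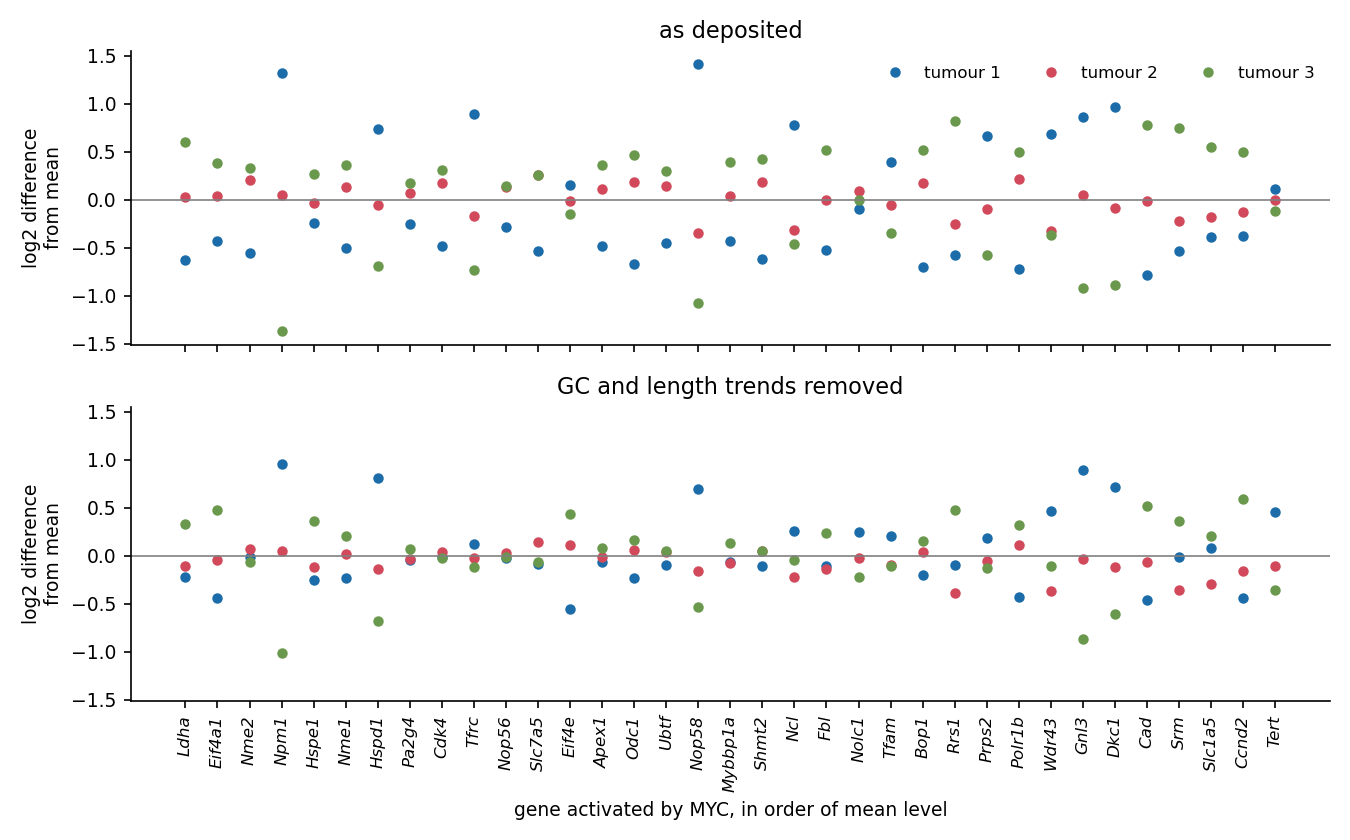
Difference of each of 35 genes activated by MYC from its mean of 3 tumours (log2(FPKM + 0.1) scale), as deposited (top) and with GC and length trends removed (bottom), ordered by mean level. At the top 12 genes are highest in tumour 1 and 22 in tumour 3; at the bottom Npm1, Nop58, Hspd1, Gnl3 and Dkc1 still stand apart in tumour 1.

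Of 9 genes known to be repressed by MYC 7 were above 1 FPKM and 1, the cell cycle inhibitor gene Cdkn1c, below at 0.231 ± 0.0274 FPKM. Of all genes 54.2% were above and 32.5% below. Gadd45a, a growth arrest gene, led at 20.6, 29.7 and 12.4 FPKM, followed by Ndrg1, which hypoxia also induces, at 10.8, 29.5 and 14.7 FPKM. The inhibitor gene Cdkn1a was at 10.5, 12.9 and 13.9 FPKM, with a small difference between tumours. Ndrg2 averaged 0.667 ± 0.254 FPKM, which was not separated from 1 FPKM. Ndrg1 and Gadd45a were past the rule for differences between tumours both as deposited and with trends removed. Both were highest in tumour 2, as Myc was. With trends removed Ndrg1 was at 12.9, 27.5 and 13.2 FPKM in tumours 1, 2 and 3. Gadd45a was then at 25.8, 27.3 and 10.8 FPKM, nearly level in tumours 1 and 2 and low in tumour 3. Cebpa, highest in tumour 3, passed as deposited only. Of the 7 genes of this list that were tested 3 thus passed as deposited, beside 32.1% of all genes. With trends removed 2 passed, beside 16.9%. Without tumour 2 the count past the rule was 1, without tumour 1 or tumour 3 it was 2.

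Of 7 glucose-responsive targets of MLX dimers 5 were above 1 FPKM, beside 54.2% of all genes. Scd1, which encodes a fatty acid desaturase, was at 224, 343 and 270.2 FPKM, Acly at 23.0, 36.6 and 43.5 FPKM and Fasn at 13.04, 18.1 and 31.3 FPKM. Arrdc4, an arrestin-domain gene whose promoter window held CACGTG, was nearly equal in the tumours at 14.9, 13.5 and 14.5 FPKM. Acaca was at 11.2 ± 2.63 FPKM. Pklr, the liver pyruvate kinase gene, was listed at 0 in all 3 tumours, and Txnip was left out because its status was not OK in all tumours. Fasn was past the rule for differences between tumours as deposited, but not with trends removed, without tumour 1 or without tumour 3.

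**Figure D5:**
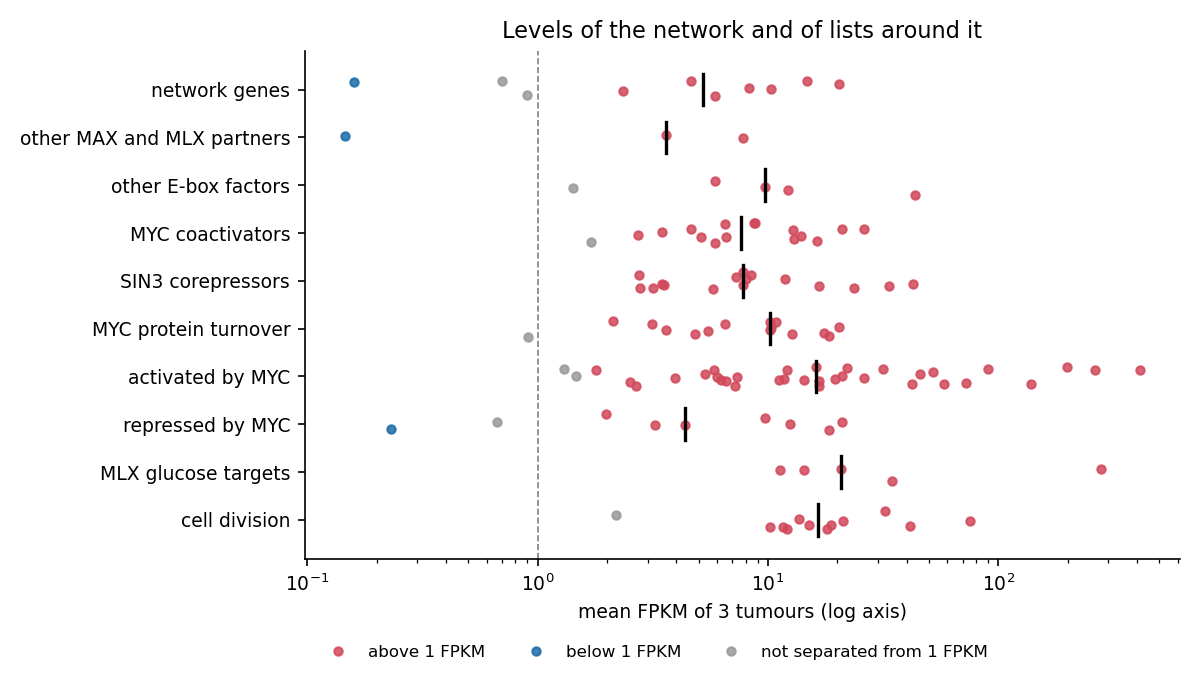
Mean FPKM of 3 tumours (log axis) of the network genes and of 9 lists around them, 1 point per gene, coloured by the limma call against 1 FPKM, with the median of the genes drawn as a bar. Pklr, listed at 0, and Txnip, without an OK status, are not drawn; Mycl1, Mlxipl and Cdkn1c are the genes called below 1 FPKM.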

How the data were processed

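The authors deposited 1 file per tumour with the FPKM of each gene, both bounds of its interval and a status flag, per the file headers. TopHat, Cufflinks and mm9 are named in the submitters' processing notes, without roles. Their versions, the annotation and the treatment of strand were not given in the sources used here. Libraries were directional and randomly primed from 50 ng of depleted RNA, per the labels' protocols.

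Rows of 221 repeated symbols were summed, and 182 symbols with a status other than OK were not tested. Each interval was taken to reach 2 standard errors to either side, and fragments as the squared ratio of FPKM to standard error. Levels were tested with limma 3.58.1 (R 4.3.3) on log2((FPKM + 0.1)/(1 + 0.1)), intercept only, with trend and robust moderation, against 0. Tumours were compared with Cochran's Q (2 degrees of freedom), and GC and length trends were taken out with lowess, span 0.3 (statsmodels 0.14.6), using GENCODE vM21 transcripts for GC content and length only (98.2% of symbols matched). Both tests and the removal were tested on simulated data. Loci are mm9, written from 1.

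Members and lists were chosen with earlier results of these data known. Named are all members and, per list, the 3 highest, the 2 lowest and those past the rule between tumours, and others after their values were seen. Tfe3, Tfeb, Tfec, Tfap4 and Ly6g were not analysed here. For 1 further gene of the turnover list the result is not reported here. The series states separate mice. The meaning of the numbers in the sample titles is not given.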

Additional observations from a re-analysis of the deposited data

How the results depend on the processing

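No paired comparison of groups was possible because the series holds a single group. Differences between members and between summed levels were taken within each tumour. Of 644 alternative values over 61 results, 577 were counted as the same, and 3 turned. To be the same, a tested result had to stay on its side of the threshold. A difference between members had to stay within its SD, and a count within a ratio of 1.5 to the main count. Some values could not change, such as the difference of the summed levels under another pseudocount or scaling. Rescaling each tumour to a total of 1000000 put Mycn and Mnt above 1 FPKM, by 1.26 and 0.91 log2 units, and Mycn was above a level of 0.5 FPKM by 0.73. Members called below were 3 at a level of 2 FPKM and 0 under a minimum mean of 0.5 FPKM, a filter that removes Mycl1 and therefore gives no value for Myc minus Mycl1. The same filter left 0 calls below among the other MAX and MLX partners and among the genes repressed by MYC. The latter had 0 after rescaling and 2 with GC and length trends removed. With pseudocount 1, which shrinks low genes, Myc minus Mycn was 1.52, Myc minus Mycl1 2.24, Mnt minus Myc -1.68, Mxd4 minus Mxd3 2.21, Mnt minus Mxd4 -3.19 and Max minus Mnt 3.64 log2 units. Members past the rule between tumours were 0 after rescaling, with median-of-ratios scaling, without loci under 300 bp and with trends removed, 2 with no minimum mean, 4 at a ratio of 1.5, and 0 to 1 when 1 tumour was left out.

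Counts past the same rule in the lists moved as follows. Over all genes 67.8% passed at a ratio of 1.5 and 16.9% with trends removed. At a ratio of 1.5 they were 2 for the other MAX and MLX partners, 4 for other E-box factors, 11 for coactivators, 10 for SIN3 corepressors, 11 for MYC protein turnover, 29 for genes activated by MYC, 4 for MLX targets and 9 for cell division. With trends removed they were 0 for the other partners, coactivators and MLX targets, 1 for turnover and 7 for activated genes. Coactivators had 0 after rescaling, and coactivators and MLX targets had 0 with median-of-ratios scaling and without short loci. When 1 tumour was left out the counts ranged from 0 to 1 for the other partners, 0 to 3 for coactivators, 0 to 6 for SIN3 corepressors, 0 to 3 for turnover, 4 to 18 for activated genes, 1 to 2 for repressed genes, 0 to 1 for MLX targets and 1 to 5 for cell division. The cause of these shifts was not tested, apart from the fewer samples or genes that a setting leaves. Depth limits Mycl1 most, at 6 to 31 fragments per tumour.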

Other observations

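Cell division genes, which MYC is known to promote, did not move as a block. Of 12 genes 11 were above 1 FPKM, beside 54.2% of all genes. Past the rule for differences between tumours were 5, beside 32.1%. Mki67, the gene of the proliferation marker Ki-67, was at 27.5, 7.63 and 5.87 FPKM in tumours 1, 2 and 3, and Top2a, a topoisomerase gene, at 55.5, 26.5 and 14.6 FPKM. Both were highest in tumour 1, where Myc as deposited was lowest, as were Ccna2 and the mitotic checkpoint gene Bub1. These 4 genes also passed with GC and length trends removed, beside 16.9% of all genes, and Mki67 was then at 24.8, 7.88 and 6.40 FPKM. Myc, however, was then lowest in tumour 3, at 4.33, 5.91 and 3.34 FPKM in tumours 1, 2 and 3. Mcm5, a helicase subunit gene, was at 12.2, 17.9 and 25.9 FPKM, highest in tumour 3, and did not pass with trends removed. Pcna, the sliding clamp gene, was the highest of the list and nearly equal in the tumours at 78.6, 72.4 and 74.7 FPKM, followed by Birc5, the survivin gene, at 41.3 ± 3.94 FPKM. The lowest were Plk1, a mitotic kinase gene, at 10.2 ± 2.66 FPKM and Bub1 at 2.19 ± 2.07 FPKM, which was not separated from 1 FPKM. Without tumour 1 the count past the rule was 1, and without tumour 3 it was 3.

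Other factors that bind E-boxes were present beside the network. Srebf1, the lipid synthesis regulator, was the highest of 5 measured at 34.2, 38.7 and 57.4 FPKM, followed by Usf2 at 12.2 ± 3.59 FPKM and Usf1 at 9.73 ± 2.17 FPKM. All 3 were listed at a higher level than Myc in every tumour. The lowest were Srebf2 at 5.86 ± 1.92 FPKM and Mitf at 1.42 ± 0.198 FPKM, which was not separated from 1 FPKM. None of the 5 was past the rule for differences between tumours (Cochran's Q, ratio of at least 2), beside 32.1% of all genes. With a ratio of at least 1.5, 4 of them were, beside 67.8%.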
